A study of Mus musculus with 8 samples.

Results

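Prdm4 is a zinc finger protein of the PRDM family, whose members pair a PR/SET domain with arrays of zinc fingers that read DNA. The sites described here are places where a tagged Prdm4 protein gave a chromatin immunoprecipitation (ChIP) peak in a single culture sample. They were chosen by that presence alone. Peaks on chromosomes 1 to 19 and X of all 4 anti-GFP samples were merged where they overlapped by at least 1 bp, and an interval was kept if its peaks came from exactly 1 sample. Of 2343 merged intervals, 812 (34.7%) met this rule, while 346 held peaks of 2 samples, 285 of 3 samples and 900 of all 4 samples.

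All samples were CCE embryonic stem cells (ESCs, 129/Sv background) stably transfected with full-length Prdm4 fused to EGFP and driven by the chicken beta-actin promoter, so the protein was overexpressed and the antibody read the tag. Replicates 1 and 2 came from clone B1 and replicates 3 and 4 from clone B6. The antibody was the anti-GFP monoclonal 3E6, and mouse IgG precipitates of the same clones served as the peak caller's control. The IgG samples had no peak list here, so there is no background list to set the sites against, and the peak lists hold no expression values with which to check the cell type.

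A ChIP peak is a stretch of genome recovered by the antibody more often than by the control. Whether reads also gathered at a private site in the other samples, below the caller's limit, was not tested, since read counts were not analysed here. Private site is used below for a site of a single sample. The samples used contributed 1469, 1805, 1428 and 1265 peaks for replicates 1 to 4. Read depth is unknown because the lists give no counts.

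The sequence on which the shared Prdm4 peaks converge is tripartite: GGG, a spacer of 1 to 4 bases, CT, any base, and GAAAC. It was searched on both strands in the 200 bp around the centre of each site's highest peak, requiring the complete GAAAC and allowing up to 2 mismatches among the other 5 fixed letters. This motif came from the shared regions of these same samples, so it is not independent of the sites of all 4 samples. The 4 windows below are those of the single-sample sites with the highest scores among the exact matches and are printed 5′ to 3′ on the plus strand of mm9, with the fixed letters of the best match in capitals. The Zpld1 and Gpr149 sites were found in replicate 3 alone and the En1 and Bmp4 sites in replicate 2 alone.
Zpld1 site, chr16:55510035-55510234: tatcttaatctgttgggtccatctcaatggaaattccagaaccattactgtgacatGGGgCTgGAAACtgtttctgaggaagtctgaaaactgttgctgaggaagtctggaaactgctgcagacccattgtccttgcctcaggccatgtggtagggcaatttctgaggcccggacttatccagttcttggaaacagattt
En1 site, chr1:122746069-122746268: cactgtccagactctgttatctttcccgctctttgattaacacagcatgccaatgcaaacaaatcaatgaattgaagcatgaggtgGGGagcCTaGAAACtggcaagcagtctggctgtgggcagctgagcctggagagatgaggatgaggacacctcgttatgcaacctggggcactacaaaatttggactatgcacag
Gpr149 site, chr3:62580405-62580604: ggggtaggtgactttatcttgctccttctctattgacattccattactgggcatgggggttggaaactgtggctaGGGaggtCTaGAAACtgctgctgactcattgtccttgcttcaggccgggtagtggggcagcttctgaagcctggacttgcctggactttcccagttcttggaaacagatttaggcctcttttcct
Bmp4 site, chr14:47038897-47039096: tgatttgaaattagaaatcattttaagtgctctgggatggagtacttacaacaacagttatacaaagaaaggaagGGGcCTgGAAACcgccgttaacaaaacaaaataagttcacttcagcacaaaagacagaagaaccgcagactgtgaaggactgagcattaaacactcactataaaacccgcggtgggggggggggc

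The highest-scoring single-sample site of all held no such match. It was found in replicate 2 alone, at chr8:112414716-112414974, in intron 2 of Phlpp2, a phosphatase that acts on AKT. Its window is shown for contrast with the exact matches, on the plus strand, and carries a GAAAC but none of the other 5 fixed letters at any allowed spacing.
Phlpp2 site, chr8:112414745-112414944: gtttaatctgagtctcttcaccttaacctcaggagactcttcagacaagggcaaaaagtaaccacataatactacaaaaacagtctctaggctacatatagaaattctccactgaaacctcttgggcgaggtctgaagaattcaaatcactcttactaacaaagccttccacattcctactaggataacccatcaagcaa

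The sites were spread unevenly over the samples. Replicate 2 held 392 of them (48.3%), replicate 3 held 166, replicate 1 held 135 and replicate 4 held 119. Set against its own list, 21.7% of the peaks of replicate 2 were found nowhere else, compared with 9.19% in replicate 1, 11.6% in replicate 3 and 9.41% in replicate 4. The share was highest in replicate 2, which also had the longest list.

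**Figure D1:**
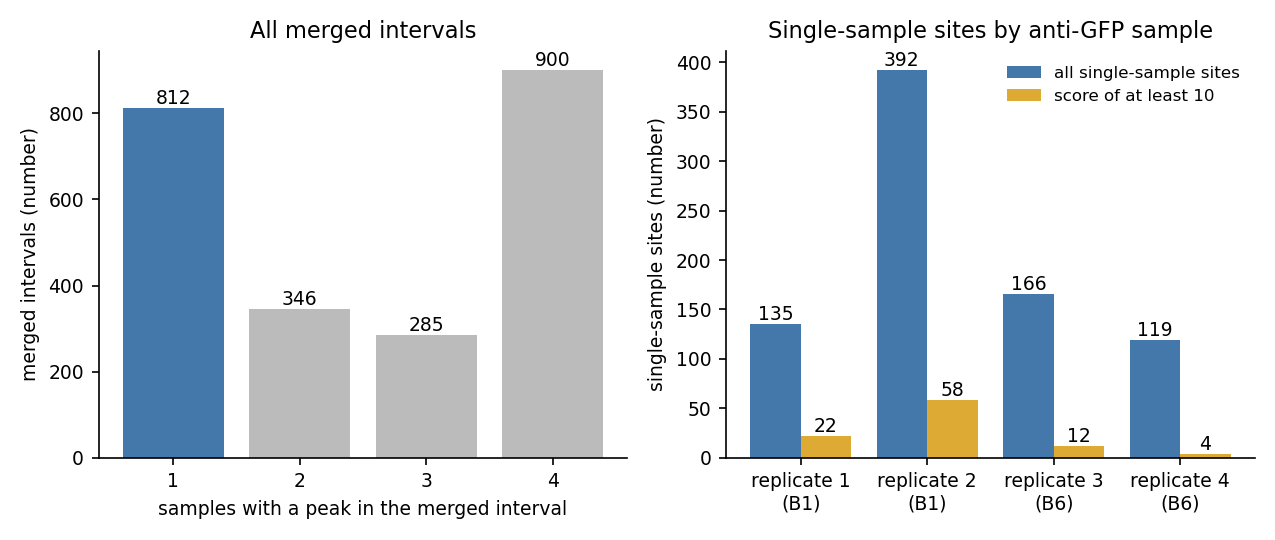
Left, number of merged intervals by the number of anti-GFP samples with a peak in them. Right, number of single-sample sites in each sample, with those scoring at least 10 beside them; replicate 2 holds 392 of the 812 sites and 58 of the 96 that reach a score of 10.

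Scores were low, as a description, since presence in a list follows from the score. The scale of the deposited score is not named. Single-sample sites had a median score of 6.28 and ranged from 1.3 to 22.3, whereas the highest peaks of the sites of all 4 samples had a median of 36.4 and reached 428.83. The median of the single-sample sites was 7.66 in replicate 1, 6.60 in replicate 2, 5.45 in replicate 3 and 5.11 in replicate 4. A score of 10 was reached by 96 sites (11.8%), of which 22 were in replicate 1, 58 in replicate 2, 12 in replicate 3 and 4 in replicate 4. Even the top site of each sample sat in the body of its list, at the 49.4th percentile in replicate 1, the 66.3rd in replicate 2, the 58.5th in replicate 3 and the 44.5th in replicate 4. The median width was 190 bp, against 374.5 bp for the intervals of all 4 samples. The latter are unions of several peaks, which can only widen them, and the part of this in the difference was not tested.

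The share of a list that was private fell with the score in every sample. Among sites scoring under 5, 32.4% were private in replicate 1, 59.6% in replicate 2, 48.9% in replicate 3 and 38.7% in replicate 4. At scores of 10 and above these shares were 2.18%, 5.19%, 1.3% and 0.496%. In between they were 23.1%, 45.1%, 24.3% and 19%, so that replicate 2 had the highest share in each of the 3 score ranges.

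**Figure D2:**
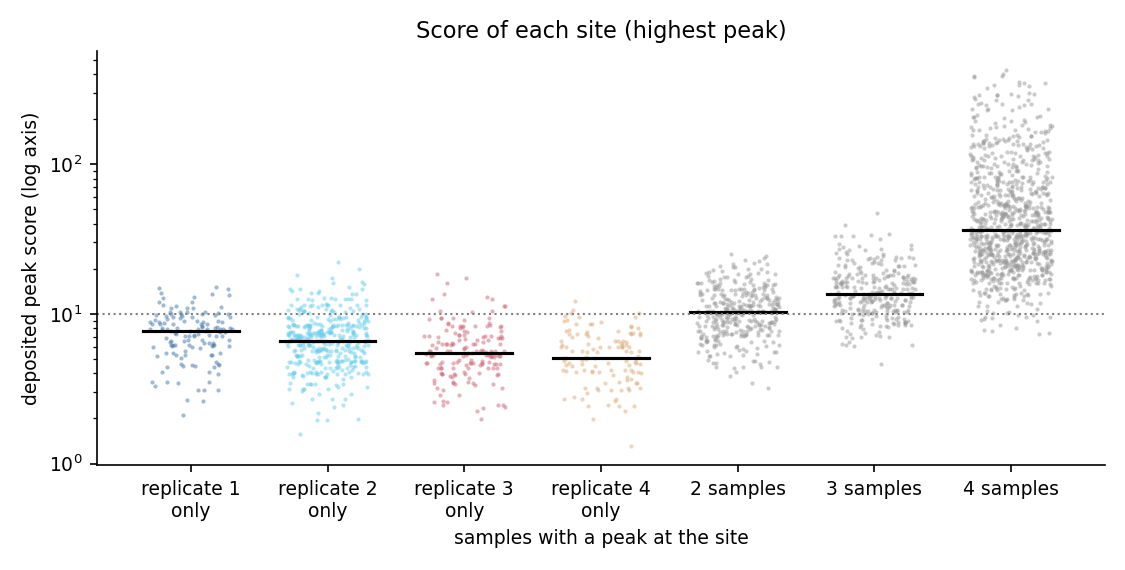
Deposited score of the highest peak of each site on a log axis, for sites of a single sample (by replicate) and for sites of 2, 3 and 4 samples. Bars mark medians and the dotted line a score of 10; most private sites lie under the line and most sites of all 4 samples above it.

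Few private sites lay close to a peak of another sample. The median gap from a private site to the nearest peak of another sample was 279 kb, and 13 of the 812 sites lay within 1 kb of such a peak. The gap from random positions was not computed, so these values do not show how sharp the edge of the rule was. The smallest gap was 13 bp, between a replicate 1 peak at chr1:10160402-10160588 with a score of 9.48 and a replicate 4 peak at chr1:10160602-10160826 with a score of 1.3, which was the lowest score of any private site. Both lie in an intron of Arfgef1, which encodes an exchange factor for ARF GTPases. The next gaps were 37 bp, between replicate 4 in intron 1 and replicate 2 in a coding exon of Lman2l, a lectin of the early secretory pathway, with scores of 5.04 and 2.48, and 71 bp, between replicates 2 and 4 near C130079G13Rik, with scores of 4.80 and 5.02. Just outside the rule, the smallest overlaps that made a 2-sample site were 44 bp near Trim45, 48 bp near Tmprss15 and 50 bp near Large.

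Most private sites carried the motif, but less often than shared sites. A match was present in 516 of 812 single-sample sites (63.5%, exact 95% interval 60.1 to 66.9), in 508 of 631 sites of 2 or 3 samples (80.5%) and in 792 of 900 sites of all 4 samples (88.0%). Of all 200 bp windows of the genome, 7.0% held one. The private sites differed from the sites of all 4 samples by -24.4 percentage points (95% interval -28.3 to -20.5; Fisher's exact test, two-sided, Benjamini-Hochberg adjusted p = 1.77e-32 over 6 tests) and from the sites of 2 or 3 samples by -17.0 points (-21.4 to -12.4; adjusted p = 2.38e-12). Sites are the units of these tests, which describe these 4 lists and not new cultures. The tests also count neighbouring sites in runs of repeated sequence, described below, as separate units. The motif was found in regions shared by these same samples, so a higher share at sites of all 4 samples was favoured in advance. The first test is therefore not independent support for a difference. The first difference was -15.1 points for private sites scoring at least 10 and -12.7 points when peaks under 10 were dropped before merging, and passed under both settings. The second difference did not pass Fisher's exact test when private sites were limited to those scoring at least 10 (-7.59 points, adjusted p = 0.205), nor when peaks under 10 were dropped before merging (-4.31 points, adjusted p = 0.224).

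In each sample the private sites lay below the 88.0% of the sites of all 4 samples, the class whose regions gave the motif. The share was 76.3% in replicate 1, 67.6% in replicate 2, 51.2% in replicate 3 and 52.9% in replicate 4. All 4 differences had the same direction, and an exact two-sided sign-flip test over the samples gave p = 0.12, the smallest that 4 samples allow. The samples of clone B1 were both above those of clone B6, by 19.9 points on average, a comparison made after the values were seen. An exact permutation test of 2 samples against 2 cannot go below the p = 0.333 it gave.

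**Figure D3:**
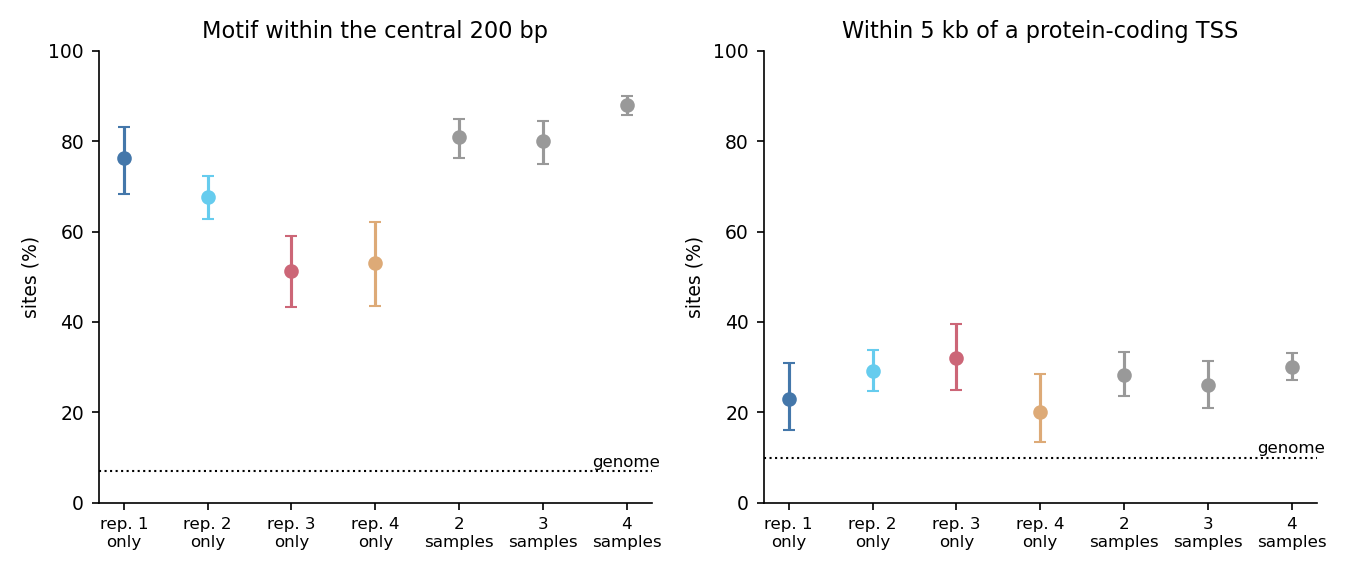
Share of sites with a motif match in the central 200 bp (left) and within 5 kb of a protein-coding transcription start site (right), for the private sites of each sample and for sites of 2, 3 and 4 samples. Points are shares with exact 95% binomial intervals and dotted lines are the genome's share, 7.0% and 10%; motif shares of private sites lie between 51.2% and 76.3%, under the 88.0% of sites of all 4 samples.

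The motif share was lowest at scores under 5 in replicates 2, 3 and 4. Private sites scoring under 5 carried a match in 73.9% (replicate 1), 56.6% (replicate 2), 41.5% (replicate 3) and 32.7% (replicate 4) of cases. Between 5 and 10 these shares were 77.8%, 70.6%, 56.2% and 71.7%. Sites of 2 or 3 samples whose peak in the same sample also scored between 5 and 10 carried it in 81.0%, 80.6%, 78.9% and 82.0%, above the private sites in all 4 samples. Sites of all 4 samples in this score range carried it in 84.1%, 82.1%, 79.6% and 77.2%, also above the private sites. Under 5, sites of all 4 samples were few, from 13 in replicate 1 to 31 in replicate 4. They carried it in 53.85%, 92.9%, 90.9% and 74.2%, below the private sites in replicate 1 only. For these shared sites the window was centred on the site's highest peak, which may be that of another sample. Private sites scoring at least 10 held a match in 70 of 96 cases (72.9%).

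The motif without a mismatch was present in 122 private sites (15%), in 142 sites of 2 or 3 samples (22.5%) and in 399 sites of all 4 samples (44.3%), against 0.122% of genome windows. By sample it was found in 15.6%, 15.8%, 14.5% and 12.6% of the private sites of replicates 1 to 4. Without the multi-copy windows defined below, these shares were 17.2%, 17.6%, 22.6% and 16.1%, with replicate 3 the highest. A further 243 private sites held a match with 1 mismatch and 151 a match with 2. At 111 private sites the window held no GAAAC with room inside the window for the rest of the motif.

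Within the searched window, matches lay near the peak centres. The search covered only the central 200 bp, which bounds these distances, and the shares for random placement were not computed. Of the best matches, 425 of 516 (82.4%) were within 50 bp of the centre and 268 (51.9%) within 25 bp. The median distance was 24.5 bp, compared with 17.2 bp at sites of all 4 samples. Best matches fell on the plus strand in 266 cases and on the minus strand in 250. Among the exact matches the spacer was 4 bases in 47, 1 base in 28, 3 bases in 26 and 2 bases in 21. A window with 2 or more matches was found at 69 of 812 private sites, 104 of 631 sites of 2 or 3 samples and 312 of 900 sites of all 4 samples.

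Nearness to genes did not pass the test of a difference over all private sites, and its value depended on the sites kept. A protein-coding transcription start site (TSS) lay within 5 kb of 222 private sites (27.3%, exact 95% interval 24.3 to 30.6), of 172 sites of 2 or 3 samples (27.3%) and of 271 sites of all 4 samples (30.1%), while 10% of the bases of the genome lie that close. The private sites differed from the sites of all 4 samples by -2.77 points (95% interval -7.04 to 1.53; Fisher's exact test, adjusted p = 0.263) and from the sites of 2 or 3 samples by 0.082 points (-4.58 to 4.68; adjusted p = 1). The first difference passed Fisher's exact test at -11.4 points (adjusted p = 9.2e-05) once sites of any class that align to another site were left out, and at -4.53 points (adjusted p = 0.047) without replicate 3. In the latter case the sites were classed anew, and private sites were set against sites of all samples kept. Without 27 private sites of replicate 3 that lie in runs of repeated sequence, described below, the difference was -5.27 points, a value given with no test because those sites were picked after they were seen.

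By sample, the share near a TSS was 23.0% in replicate 1, 29.1% in replicate 2, 31.9% in replicate 3 and 20.2% in replicate 4. It was below the 30.1% of the sites of all 4 samples in 3 samples and above it in replicate 3 (exact sign-flip p = 0.375). The direction in replicate 3 rested on the same 27 sites, without which its share was 18.7% and all 4 samples lay below 30.1%. The median distance was 17.7 kb over all private sites, and 219 of them (27.0%) lay 50 kb or more from any such TSS. The centres of 332 private sites (40.9%) were in introns, of 30 (3.7%) in coding exons, of 25 in untranslated exons and of 425 (52.3%) between genes. For sites of 2 or 3 samples the shares were 36.0% in introns, 1.90% in coding exons and 58.0% between genes. For sites of all 4 samples they were 34.9%, 1.11% and 59.8%. These shares were not tested. Replicate 3 held 15 of the 30 sites in coding exons, and 2 once multi-copy windows were left out, compared with 2 in replicate 1, 12 in replicate 2 and 1 in replicate 4 either way.

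**Figure D4:**
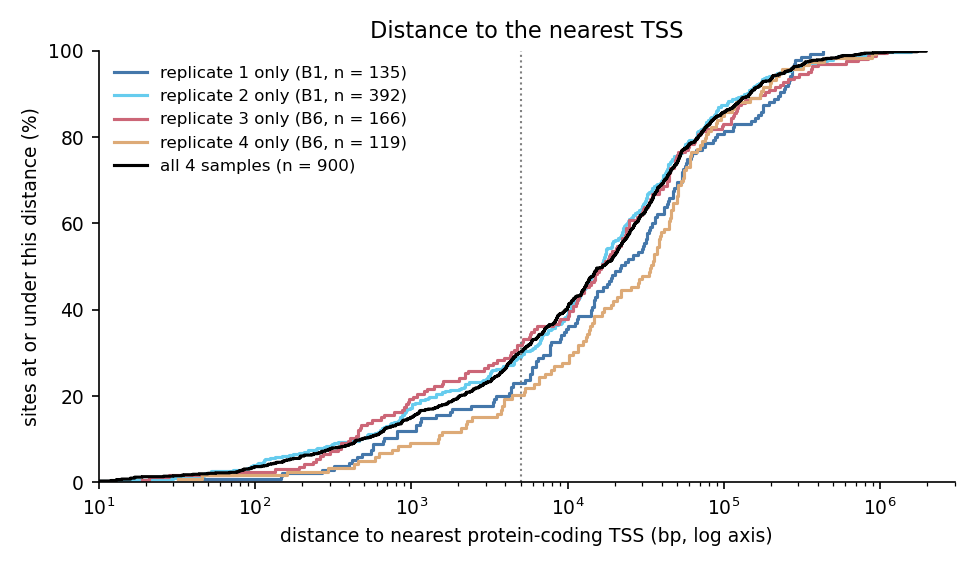
Cumulative share of sites by the distance from the centre of the highest peak to the nearest protein-coding TSS, on a log axis, for the private sites of each replicate and for the 900 sites of all 4 samples. The dotted line marks 5 kb, where the private sites of replicate 4 reach 20.2% and those of replicate 3 reach 31.9%.

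Private sites were less often similar in sequence to a shared site. The highest peak of 151 private sites (18.6%) matched that of a site of all 4 samples along 100 bp or longer with an identity of 70% or higher, while 357 of the 900 sites of all 4 samples (39.7%) matched another of their own class (difference -21.1 points, 95% interval -25.2 to -16.8; Fisher's exact test, adjusted p = 2.14e-21). Peaks of the latter were wider, and the part of width in this difference was not tested. Of the 151 private sites, 90 had multi-copy windows, as defined below. Without such windows in either class the shares were 9.30% and 33.3% (difference -24.0 points, Fisher's exact test, adjusted p = 1.11e-28). The private sites that did align carried the motif in 137 of 151 cases (90.7%) and lay within 5 kb of a TSS in 12 (7.95%). Those that did not align carried it in 57.3% and lay near a TSS in 31.8%. Zpld1 and Gpr149 in replicate 3 belong to the aligning sites, and En1 and Bmp4 do not.

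The private windows were poorer in G and C, at 48.8% ± 6.79 (SD, n = 812 sites) against 51.5% ± 6.41 (n = 900), a difference of -2.67 points (permutation test over sites, two-sided, adjusted p = 1.5e-05, from the smallest p the resamples can give). For private sites scoring at least 10 the difference was -0.676 points and did not pass the same permutation test (adjusted p = 0.491). Over the whole peak in place of the central 200 bp, the difference for all private sites was -1.54 points. The mean was 49.9% in both replicates of clone B1, 46.1% in replicate 3 and 47.9% in replicate 4. Without the multi-copy windows described next, it was 50.7%, 50.6%, 49.1% and 48.5% in replicates 1 to 4.

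The private sites of replicate 3 included runs of neighbouring sites in repeated sequence. A window was called multi-copy when over 50% of its 31-base words occurred more than once in the genome, which was true of 60 of the 166 private sites of replicate 3 (36.1%), compared with 14.1% in replicate 1, 13.0% in replicate 2, 21.9% in replicate 4 and 11% of the sites of all 4 samples. In 3 places, replicate 3 alone had 3 or more private sites with gaps of up to 20 kb between neighbours, 27 sites in all. The first run held 19 sites at chr9:3000193-3038164, around predicted gene models such as Gm10715 and Gm10720, with median word copy numbers from 6 to 44. Another held 5 sites at chr1:24618494-24622312, around Gm10222 and Gm10925, in which all 31-base words also occur in the mitochondrial sequence. The last held 3 sites at chr2:98502544-98507372, around Gm10800 and Gm10801. Another run by the same distance, of mixed samples, lay at chr1:72272379-72295535 near Mreg and Pecr. It had 1 private site each of replicates 1, 2 and 4, with 1 shared site between them. These private sites had no multi-copy window, no motif and no TSS within 5 kb.

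None of the 27 sites of replicate 3 carried the motif, all 27 lay within 5 kb of a TSS of a gene model, and their scores ran from 2.23 to 7.16. Replicate 3 was also the sample with peaks on the mitochondrial sequence itself, 15 against 0 in each of the others, which were not part of the sites. Without the 27 sites, 61.2% of the private sites of replicate 3 and 65.7% of those of all samples carried the motif. The share near a TSS over all samples was then 24.8%. When multi-copy windows of every class were left out, the motif shares were 74.1%, 66.3%, 56.6% and 48.4% in replicates 1 to 4, and the differences in motif share from both shared classes kept their side of the threshold. A window of the chr9 run, from its highest-scoring site, is printed on the plus strand to show its sequence.
Gm10715 site, chr9:3037970-3038169: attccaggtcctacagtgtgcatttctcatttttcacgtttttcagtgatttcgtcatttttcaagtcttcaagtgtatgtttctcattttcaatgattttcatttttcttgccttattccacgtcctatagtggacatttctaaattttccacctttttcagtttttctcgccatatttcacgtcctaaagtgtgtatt

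**Figure D5:**
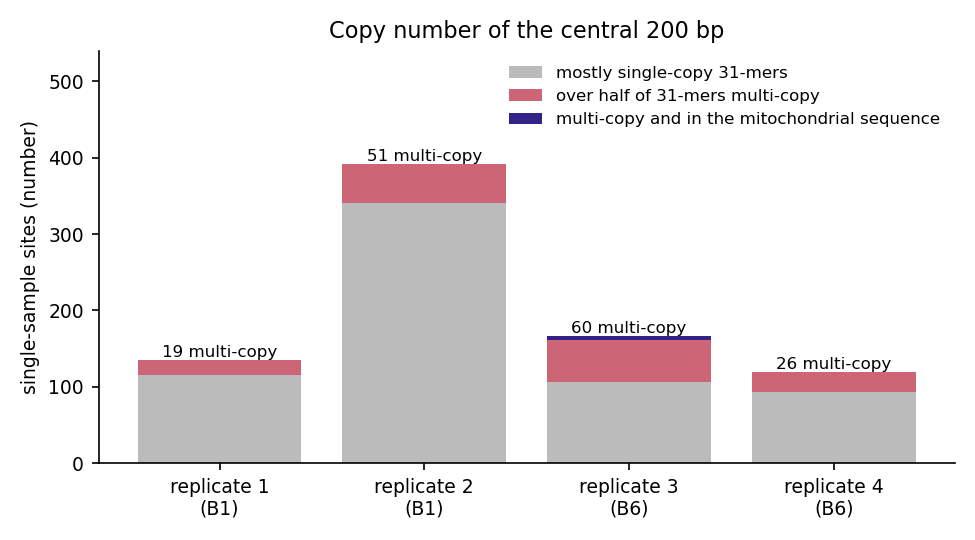
Number of private sites in each sample, divided by whether over 50% of the 31-base words in the central 200 bp occur more than once in the genome, and whether they occur in the mitochondrial sequence. Replicate 3 holds 60 multi-copy sites among 166, including the 5 whose words are all mitochondrial.

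The private sites with the highest scores in each sample lay at very different distances from genes. In replicate 2 the Phlpp2 site scored 22.3, a site 12.0 kb upstream of Tbc1d23, whose product tethers endosome-derived vesicles, scored 19.86, and a site 247 kb downstream of En1, a homeobox gene of the midbrain and hindbrain, scored 18.27. In replicate 3 a site 212 kb upstream of Zpld1 scored 18.59 and a site 171 kb upstream of Gpr149, an orphan G protein-coupled receptor, scored 17.37. The next of that sample scored 15.97 and lay in an untranslated exon of Lars2, the mitochondrial leucyl-tRNA synthetase, with Limd1 as the gene of the nearest TSS. That window lacked GAAAC, and 63.5% of its words were multi-copy.

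In replicate 1 the leading sites lay 4.34 kb upstream of Gm7579 (score 15.09), 30.6 kb upstream of Zbtb8a (14.97, with an exact motif) and in intron 2 of Rab23 (14.77), a small GTPase that restrains hedgehog signalling. In replicate 4 they lay 21.8 kb from the TSS of Zfp60 (12.15), in a window with 81.2% multi-copy words, and in intron 1 of Mxra7 (10.57). A pair of sites followed with a tied score of 10.11, near Pmm1, a phosphomannomutase, at 5.31 kb, and near Kbtbd8, a substrate adaptor of the CUL3 ubiquitin ligase, at 46 bp. Exact matches also occurred at a replicate 2 site 28.7 kb upstream of Bmp4, a ligand of the BMP pathway that acts in ESC self-renewal, with a score of 15.99, and at a replicate 2 site 91.3 kb upstream of Tcerg1l, with a score of 15.84. The nearest peak of any other sample was 38.6 kb from the Bmp4 site.

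Among sites within 5 kb of a TSS, 8 of the 10 with the highest scores were private to replicate 2 and the others, at Gm7579 and Rab23, to replicate 1. Replicate 2 also held 17 of the 25 private sites within 5 kb of a TSS that scored at least 10. The replicate 2 site at chr15:89259070-89259296 (score 14.74) was in a coding exon of Chkb, a choline kinase, 341 bp from its TSS, with Cpt1b, a carnitine palmitoyltransferase of muscle, also within 5 kb. It held a motif with 1 mismatch. Close to the TSS lay the sites of Pbx4, a homeobox gene of the TALE class (245 bp upstream, score 14.24), Nfkbiz, an inhibitor-like regulator of NF-kappaB (116 bp upstream, 13.65) and Psmg3, a proteasome assembly chaperone (16 bp downstream, 12.37). The Steap1 site, 165 bp upstream of a gene of the metalloreductase family, scored 12.58 and held an exact match with a spacer of 4 bases, and a site 1.14 kb upstream of 1810014F10Rik had the same score and also an exact match. The remaining sites were in a coding exon of Hspb7, a small heat shock protein of heart muscle (1.15 kb, 13.65), where GAAAC was absent, and 103 bp upstream of a TSS of Amotl1, an angiomotin family member (11.70). The Steap1 window is printed on the plus strand. It ties with the 1810014F10Rik site for the highest score of the exact matches within 5 kb of a TSS, and lies nearer to its TSS.
Steap1 site, chr5:5749391-5749590: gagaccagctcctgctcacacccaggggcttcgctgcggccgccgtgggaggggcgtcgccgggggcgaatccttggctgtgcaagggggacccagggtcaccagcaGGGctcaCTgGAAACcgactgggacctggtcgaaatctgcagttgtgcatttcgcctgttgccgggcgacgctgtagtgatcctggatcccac

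A private site lay near 4 genes of the 5 pathway and family lists examined. Over all protein-coding genes, 242 of 22202 (1.09%) had a private site within 5 kb of a TSS. Of the listed genes, this was so for 1 of 29 pluripotency genes, 1 of 37 genes of Nodal and BMP signalling, 1 of 43 genes of Wnt signalling, 1 of 34 cell cycle genes and 0 of 15 members of the Prdm family. These are single genes per list, and the shares are a description only.

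The pluripotency gene was Lifr, the receptor subunit for LIF, with a replicate 2 site in intron 1 that scored 4.86 and lay 3.26 kb downstream of the TSS. The Nodal and BMP gene was Pcsk6, a convertase that cleaves the Nodal precursor, with a replicate 2 site 896 bp downstream of the TSS that scored 4.48. The Wnt gene was Gsk3b, a kinase of the complex that degrades beta-catenin, with a replicate 1 site in intron 1, 571 bp downstream of the TSS, that scored 10.98. The cell cycle gene was E2f3, a transcription factor of the entry into S phase, with a replicate 2 site 319 bp downstream of the TSS that scored 5.65. Of these, the E2f3 window held a match with 1 mismatch, the Gsk3b and Pcsk6 windows a match with 2, and the Lifr window none within the limit.

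Of the 242 genes near private sites, 3 also had a site of all 4 samples within 5 kb of a TSS, namely Dcun1d3, Ddah2 and Pnpla1, while 293 of all 22202 genes had such a site. Private sites of different samples met at 2 genes, Dixdc1, with a replicate 1 site 814 bp and a replicate 4 site 1.48 kb from separate TSSs, and Lman2l.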

How the data were processed

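Chromatin from CCE ESCs expressing Prdm4-EGFP was precipitated with anti-GFP (4 samples) or mouse IgG. The authors aligned the reads with Stampy (mm9) and ran MACS2 at default settings with IgG as control; versions are not given in the sources used here. The deposited score of each peak was used as it stands, and its scale is not named. Of the peaks, 21 off chromosomes 1 to 19 and X were left out.

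Merged intervals were classed by the number of samples. Features were read at the centre of the highest peak from the NCBIM37 (mm9) genome and GENCODE M1, with 45939 TSS positions of protein-coding transcripts. Similarity was found with BLAST 2.17.0 (E-value 1e-10). Tests used SciPy 1.17.1, with 100000 resamples for GC content. The steps were tested on simulated data. Depth is unknown, and intervals cover counting error only. Samples of a clone are separate experiments, and p-values over sites describe these lists only.

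Named are the genes nearest to the 3 highest-scoring private sites per sample, to the 10 highest within 5 kb of a TSS and to the 5 highest with an exact motif, all listed pathway genes with a private site within 5 kb, and the 3 smallest gaps. The sites that lead in other ways (Kbtbd8, the runs of replicate 3, Dixdc1, Dcun1d3, Ddah2, Pnpla1) were named after their values were seen. The members, gene lists and tests were chosen with earlier results of these data known. Alternatives covered the minimum score, overlap, each sample left out, motif, TSS and alignment settings; leaving out multi-copy windows was added after seeing the data.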

Additional observations from a re-analysis of the deposited data

Results flagged for a closer look

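The share of private sites that align to a site of all 4 samples was 13.3% in replicate 2, far from the 24.4% of replicate 1, the 23.5% of replicate 3 and the 22.7% of replicate 4, which lie close together. Without multi-copy windows the shares were 13.8%, 5.57%, 15.1% and 10.8% in replicates 1 to 4, and replicate 2 was no longer set apart. This was 1 of 13 quantities examined over the 4 samples for a sample apart from the others, and chance alone sets about 1 in 20 such groups apart.

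Replicate 3 had 15 peaks on the mitochondrial sequence, which the sites above leave out, while the other anti-GFP samples had 0. The IgG samples had no peak list here to compare with.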

How the results depend on the processing

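No paired analysis was possible because the IgG samples that share replicate numbers with the anti-GFP samples had no peak list here. With peaks under a score of 10 dropped before merging, 384 intervals held peaks of a single sample in place of 812 (27.5% of intervals), of which at most 96 can be sites of the original set, since only 96 of those scored at least 10, and the motif difference from sites of 2 or 3 samples was -4.31 points and no longer passed. With each sample left out in turn, private sites made up 34.3% to 39.5% of intervals, the highest without replicate 1. The intervals were then merged and classed anew, and sites of all samples kept took the place of sites of all 4 samples. The motif difference from sites of 2 or 3 samples was -7.59 points and the GC difference from sites of all 4 samples -0.676 points for private sites scoring at least 10, and neither passed. The TSS difference from sites of all 4 samples ranged from -4.53 (without replicate 3, where it passed) to -0.335 points over the samples left out, was -11.4 points without sites that align to another site, where it also passed, and 0.529 points within 1 kb.

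The TSS difference from sites of 2 or 3 samples, 0.082 points, took either sign and passed under no setting tried: -1.03 points joining gaps of up to 1 kb, -1.22 for scores of at least 10, -3.85 without aligning sites, -2.06 within 10 kb, -1.73 without multi-copy windows, and -4.00 (without replicate 4) to 3.0 over the samples left out. The cause was not tested. The motif and similarity differences from sites of all 4 samples kept direction and call under every setting tried for them, the motif difference falling to -12.7 points with peaks under 10 dropped. The lists carry no counts, so a site missing from a list cannot be told apart from one just under the caller's limit.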
